A study of Gallus gallus with 6 samples.

Results

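DNA replication genes were read from RNA-seq of the embryonic chick lens. They were chosen by gene symbol alone, as the entries named for an MCM, ORC, RFC, RPA or GINS protein, a subunit of the replicative polymerases or of primase, CDC6, CDC7, CDC45, CDT1, GMNN, PCNA, LIG1, FEN1, RRM1, RRM2, TYMS or TK1. The table held 45 such entries among 16561. The 3 lens fiber cell libraries were compared with the 3 lens epithelial cell libraries, each from cells microdissected from pooled White leghorn lenses at embryonic day 13 (E13) and sequenced from total RNA. The fiber samples held peripheral and central fibers, and the epithelial samples held central and equatorial epithelium, so each library averages over cells of several stages. Neither cell type carried a treatment or a genetic change. The study describes the libraries as biological replicates of pooled cells.

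A chromosome can be copied once per cell cycle because its origins are licensed in one phase and fired in the next. The origin recognition complex (ORC), CDC6 and CDT1 load the MCM2 to MCM7 ring onto DNA, and the kinase CDC7 together with MCM10, CDC45 and the GINS complex turns that ring into a moving helicase. Primase with polymerase α starts each strand, the clamp loader RFC places the sliding clamp PCNA, and polymerases δ and ε extend the strands, while RPA covers the exposed single strand and ribonucleotide reductase, thymidylate synthase and thymidine kinase supply nucleotides. In the lens, epithelial cells divide and leave the cell cycle as they become fiber cells.

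Levels are in FPKM, which divides fragments by transcript length and library size. Differences are log2 fold changes, fiber minus epithelial, of log2(FPKM + 0.1) from limma. A gene was called where the adjusted p was below 0.05 and the difference exceeded 0.4 in size. Entries averaging 0.5 FPKM or more over the 6 libraries, 10818 in all, were tested. Their median log2 fold change was −0.62, so the main counts and some differences are also given after centring of every library on its median. This gives the centred log2 fold change. Where no centred value is given, the difference is that of the values as deposited. Centring raised every difference by the same amount, which took the median of the tested entries from −0.62 to −0.01. With the values as deposited, 57.7% of the tested entries were called lower and 13.1% higher in fiber cells, and after centring these shares were 29.3% and 30.2%. The sequencing depth is unknown because FPKM carry no read counts. An exact permutation test of 3 libraries against 3 cannot give a two-sided p under 0.1.

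The labels fitted the marker genes. All 8 tested fiber markers (BFSP1, CRYGN, MIP, LGSN, GJA3, TDRD7, CRYBB1 and HOPX) were called higher and all 6 tested epithelial markers (PAX6, CDH1, PDGFRA, CYTL1, LAMB1 and COL4A1) lower in fiber cells. Over all tested entries 13.1% were called higher and 57.7% lower. The study names BFSP1, CRYGN, GJA3, TDRD7 and CRYBB1 among the top differing genes of these same libraries, so these are no independent check. LGSN, HOPX and CYTL1 lay at percentiles 99.99, 99.98 and 0.009 of the log2 fold changes of all tested entries. Gene lists were chosen with earlier results of these data known, so the other markers are no independent check either. CYTL1 passed the filter through its epithelial level alone, and such genes had to differ. The log2 fold change of CDH1, −0.70, was −0.09 after centring and was not called, whereas the other markers of these lists kept their calls. The 7 epithelial markers in the table summed to 36.7 to 47.7 FPKM in fiber libraries, against 166 to 194 FPKM in epithelial libraries. Among cells from outside the lens, the 5 erythrocyte markers in the table summed to 6.50 to 8.81 FPKM in fiber and 1.68 to 2.03 FPKM in epithelial libraries. They went in different directions. The globin gene HBZ had means of 6.51 FPKM in fiber and 0.0259 FPKM in epithelial cells, and HBAD 0.679 and 0.0317 FPKM. EPB42 had 0.569 and 1.77 FPKM, and HBBA and HBE1 overlapped. The 7 pigment cell markers summed to 0.521 to 0.714 FPKM in fiber and 1.70 to 4.82 FPKM in epithelial libraries. The 5 immune cell markers summed to 2.66 to 3.60 FPKM in fiber and 5.46 to 6.24 FPKM in epithelial libraries, with LAPTM5 called higher and CD74 lower in fiber cells. The 6 markers of cornea and connective tissue summed to 6.70 to 7.64 FPKM in fiber and 6.49 to 7.72 FPKM in epithelial libraries. Of these, DCN was called higher in fiber cells (mean 5.65 against 2.32 FPKM) and KERA lower (1.01 against 3.59 FPKM). The 5 neural retina markers summed to 0.0233 to 0.392 FPKM in fiber and 0.390 to 0.802 FPKM in epithelial libraries, and the 5 skeletal muscle markers to 0.209 to 0.636 FPKM in fiber and 0.996 to 1.22 FPKM in epithelial libraries. MYOG and MYH1E of the muscle list were at the floor of the table in every library. The part of these cells in the results was not tested, and in bulk RNA fewer replicating cells and less RNA per cell cannot be told apart.

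Transcripts of the replication machinery were less abundant in fiber cells, and the parts of the machinery differed in how far. Of the 43 tested replication genes, 36 were called lower, 1 was called higher (RFC2) and 6 were not called in fiber cells, against 57.7% called lower and 13.1% called higher over all tested entries. After centring, 29 were called lower and 4 higher, against 29.3% and 30.2%. Their median log2 fold change was −1.53, or −0.92 centred, beside −0.62 and −0.01 for all tested entries. The fiber libraries lay wholly below the epithelial ones in 40 of the 45 genes. They lay wholly above them in 2 (ORC2 and RFC2) and overlapped them in 3 (ORC6, RFC5 and FEN1). Of the 43 tested genes, 38 lay wholly below and 2 wholly above, against 63.6% and 16.1% of all tested entries.

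The filter bears on these counts. CDC6 and ORC1 were under it and were not tested. Another 14 genes passed through their epithelial level alone, with a fiber mean under 0.5 FPKM, and such genes had to differ. Of the 29 genes with at least 0.5 FPKM in each cell type, a limit added after the values were seen, 22 were called lower, against 54.9% of the 9774 entries that met the same limit. After centring 15 of the 29 were called lower, against 24.8%.

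**Figure D1:**
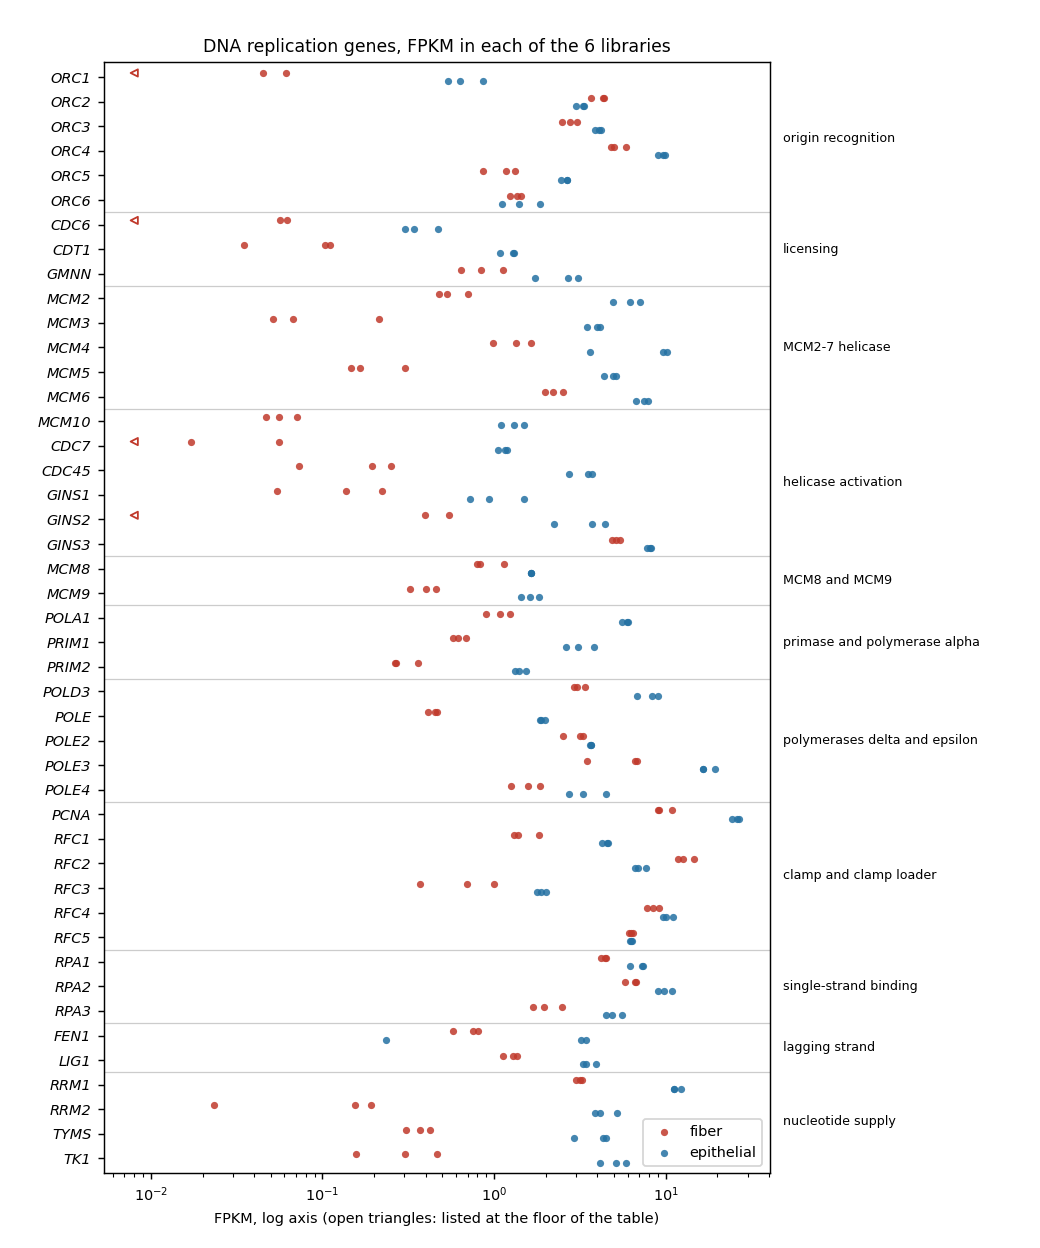
FPKM (horizontal log axis) of the 45 replication genes in each of the 3 fiber (red) and 3 epithelial (blue) libraries, grouped by role. Open triangles at the left edge mark libraries listed at the floor of the table, 0.0001 FPKM, and are not drawn to scale. The fiber points lie left of the epithelial ones in 40 genes.

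Together the 45 genes summed to 102, 98.8 and 103 FPKM in fiber replicates 1, 2 and 3, and to 246, 221 and 225 FPKM in epithelial replicates 1, 2 and 3. The fiber mean was 43.9% of the epithelial mean, and the groups did not overlap (two-sided exact permutation p = 0.1, the smallest possible). Over all tested entries, the median of the mean levels was 3.09 FPKM in fiber and 4.79 FPKM in epithelial cells. A part of the fall in the sum is thus shared with the median gene, and the sum was not computed after centring. The makeup of this sum differed too. PCNA and the clamp loader took 38.1 to 41.1 FPKM in fiber and 54.7 to 57.6 FPKM in epithelial libraries, whereas the MCM2 to MCM6 genes took 4.01 to 5.25 FPKM in fiber and 26.6 to 34.1 FPKM in epithelial libraries. RFC2 alone was 11.4% to 14.9% of the sum in fiber libraries, against 2.81% to 3.49% in epithelial libraries. In fiber cells the genes with the highest mean FPKM were RFC2 (13.0), PCNA (9.68), RFC4 (8.44), RPA2 (6.37) and RFC5 (6.30), where the ranges of PCNA and RFC4 and those of RPA2 and RFC5 overlapped. In epithelial cells they were PCNA (25.8), POLE3 (17.4), RRM1 (11.5), RFC4 (10.2) and RPA2 (9.93), where the ranges of RFC4 and RPA2 overlapped.

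The origin recognition complex marks the sites where replication starts. Of its 6 genes, 5 were tested, and 3 of these (ORC3, ORC4 and ORC5) were called lower in fiber cells, a share close to the 57.7% of all tested entries. After centring 1 was called lower and 2 higher. ORC1, whose protein is the subunit that comes and goes with the cell cycle in mammals, was listed at 0.0001, 0.0614 and 0.0448 FPKM in fiber cells and at 0.633, 0.866 and 0.537 FPKM in epithelial cells. Its groups were far apart although its mean was under the filter, and without the filter it was called lower (log2 fold change −2.53, adjusted p = 0.000123), as were 49.5% of the entries then tested. ORC4, the most abundant subunit, had 5.02, 4.79 and 5.90 FPKM in fiber cells and 9.86, 9.61 and 9.07 FPKM in epithelial cells. The difference of −0.85 on the log2 scale (standard error 0.11, adjusted p = 0.000154) was called, and with −0.25 after centring it was under the size limit. ORC5 fell most among the tested subunits, with a log2 fold change of −1.16, or −0.55 centred.

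ORC2 ran the other way. It had 4.37, 4.32 and 3.69 FPKM in fiber cells, against 2.99, 3.33 and 3.31 FPKM in epithelial cells. Every fiber library was above every epithelial one, and the log2 fold change of 0.35 (95% interval 0.08 to 0.62, adjusted p = 0.0229) missed the size limit of 0.4. Without fiber replicate 3 it was 0.43 and was called higher. After centring it was 0.96 (adjusted p = 0.000338) and also called higher. ORC6 overlapped between the cell types, with 1.36, 1.24 and 1.43 FPKM in fiber cells and 1.85, 1.12 and 1.404 FPKM in epithelial cells. Its log2 fold change was −0.09 (95% interval −0.54 to 0.37), and it turned to 0.52 after centring, where it was called higher. ORC3 had a log2 fold change of −0.53, which turned to 0.07 and was not called after centring.

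CDC6 and CDT1 bring the helicase to ORC, and GMNN (geminin) holds CDT1 back once replication has begun. CDC6 was low in both cell types, at 0.0001, 0.0624 and 0.0569 FPKM in fiber cells and 0.341, 0.473 and 0.302 FPKM in epithelial cells. The groups did not overlap, and without the filter CDC6 was called lower (log2 fold change −1.77, adjusted p = 0.000637). CDT1 had 0.103, 0.111 and 0.0349 FPKM in fiber cells, against 1.08, 1.30 and 1.29 FPKM in epithelial cells. This was 6.78% of the epithelial mean, and the log2 fold change was −2.88 (standard error 0.27, adjusted p = 3.50e-05). CDT1 passed the filter through its epithelial level alone, and such genes had to differ. GMNN kept more of its level, with 1.13, 0.645 and 0.835 FPKM in fiber cells and 2.71, 3.10 and 1.74 FPKM in epithelial cells. It fell by 1.42 on the log2 scale, or 0.81 centred, and was called lower in both.

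The MCM2 to MCM7 proteins form the ring of the replicative helicase, and MCM2 to MCM6 were in the table. All 5 were called lower in fiber cells with the values as deposited and after centring, against 57.7% and 29.3% of all tested entries. Their median difference was −3.20 on the log2 scale, or −2.59 centred. MCM3 and MCM5 passed the filter through their epithelial level alone, and such genes had to differ. MCM3 had the lowest mean fiber level, with 0.214, 0.0516 and 0.0677 FPKM, against 3.96, 3.46 and 4.16 FPKM in epithelial cells. The fiber mean was 2.88% of the epithelial mean, and the log2 fold change of −4.30 (standard error 0.29, adjusted p = 8.53e-06) depends on the added 0.1 FPKM, which is close to the fiber values. MCM5 resembled it, with 0.165, 0.304 and 0.146 FPKM in fiber cells and 4.96, 4.38 and 5.16 FPKM in epithelial cells, or 4.24% of the epithelial mean (log2 fold change −4.05). MCM2 had 0.702, 0.534 and 0.476 FPKM in fiber cells, against 7.04, 4.91 and 6.21 FPKM in epithelial cells, and a log2 fold change of −3.20 (standard error 0.19).

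MCM6 and MCM4 kept larger shares. MCM6 had 2.52, 2.22 and 1.97 FPKM in fiber cells and 7.93, 6.75 and 7.51 FPKM in epithelial cells, and its log2 fold change was −1.68 (standard error 0.13, adjusted p = 1.31e-05). Its fiber mean was 30.2% of the epithelial mean, and its libraries were far apart. MCM4 had 1.65, 0.992 and 1.35 FPKM in fiber cells, against 10.2, 9.62 and 3.61 FPKM in epithelial cells. Epithelial replicate 3 stood well below the other epithelial libraries in this gene, and the log2 fold change was −2.36 with all libraries and −2.83 without that library.

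Levels within the ring were thus more unequal in fiber cells, where the lowest values were near the added 0.1 FPKM. The lowest subunit was MCM5 at 0.165 FPKM in fiber replicate 1. In fiber replicates 2 and 3 it was MCM3, at 0.0516 and 0.0677 FPKM. In epithelial libraries the highest of the 5 subunits was 2.05 to 2.73 times the lowest, and in fiber libraries 9.91 to 15.3 times, as ratios of FPKM + 0.1. This spread, computed for 8 complexes or parts of complexes after the values were seen, did not overlap between the cell types for the ring (two-sided exact permutation p = 0.1, the smallest possible, or 0.114 adjusted over the 8). GINS1 to GINS3, RFC1 to RFC5, RPA1 to RPA3 and ORC1 to ORC6 also had wider spreads in fiber libraries without overlap. These include GINS2 in fiber replicate 2 and ORC1 in fiber replicate 1, both at the floor of the table. ORC2 to ORC6, with 3.59 to 5.06 in fiber and 5.09 to 7.97 in epithelial libraries, and POLA1 with PRIM1 and PRIM2, with 2.56 to 3.65 in fiber and 3.70 to 4.11 in epithelial libraries, had narrower ones. POLE to POLE4 overlapped. How often such spreads fail to overlap in other groups of genes was not computed.

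**Figure D2:**
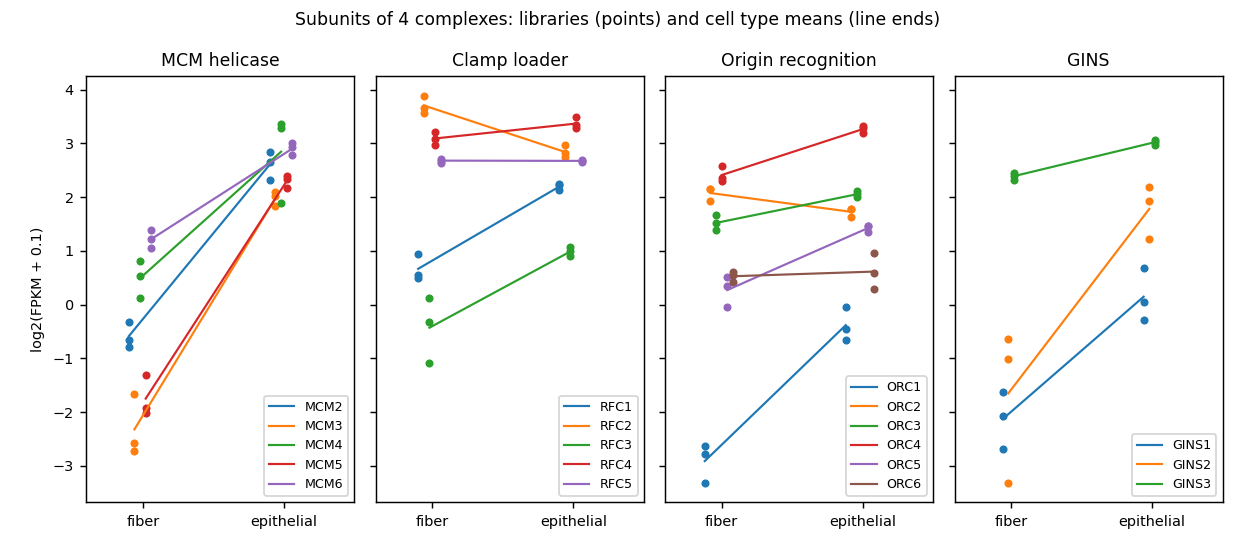
Level of each subunit, as log2(FPKM + 0.1) on the vertical axis, in fiber (left) and epithelial (right) libraries for the MCM helicase, the clamp loader, the origin recognition complex and GINS. Points are libraries and lines join the cell type means, so lines that fan out to the left show subunits with more unequal levels in fiber cells. For MCM2 to MCM6 the highest was 9.91 to 15.3 times the lowest in fiber and 2.05 to 2.73 times in epithelial libraries. The lowest fiber values are near or under the added 0.1 FPKM.

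The factors that activate the helicase were all 6 called lower in fiber cells, and 5 of the 6 after centring. Of all tested entries 57.7% were called lower, or 29.3% after centring. MCM10, CDC7, CDC45, GINS1 and GINS2 passed the filter through their epithelial level alone, and such genes had to differ. CDC7, the kinase that phosphorylates the MCM ring, was close to the floor of the table in fiber cells, with 0.0001, 0.0172 and 0.0561 FPKM, against 1.05, 1.16 and 1.19 FPKM in epithelial cells. Its epithelial libraries were close to each other, and the log2 fold change was −3.33 (standard error 0.28, adjusted p = 2.07e-05). CDC45, which binds the ring together with GINS, had 0.250, 0.0733 and 0.194 FPKM in fiber cells and 3.55, 2.73 and 3.72 FPKM in epithelial cells. The fall of CDC45 was the largest among the activating factors on the fitted scale, with −3.70 (standard error 0.29). MCM10, a scaffold of the early fork, fell to 0.0469, 0.0714 and 0.0560 FPKM in fiber cells, against 1.49, 1.31 and 1.09 FPKM in epithelial cells. Its values were identical to those of another Ensembl entry without a symbol, so the signal cannot be assigned to one of them.

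Within GINS, a ring-shaped partner of CDC45, the subunits differed. GINS2 had 0.397, 0.0001 and 0.545 FPKM in fiber cells and 4.45, 2.24 and 3.71 FPKM in epithelial cells. Fiber replicate 2 was at the floor of the table, and the log2 fold change of GINS2 was −3.43 with all libraries and −2.60 without that one. GINS1 had 0.0546, 0.137 and 0.224 FPKM in fiber cells, against 1.495, 0.929 and 0.725 FPKM in epithelial cells, with a log2 fold change of −2.28. GINS3 was the most abundant of the 3, with 5.38, 5.15 and 4.90 FPKM in fiber cells and 8.06, 8.25 and 7.77 FPKM in epithelial cells. It fell by 0.63 on the log2 scale (standard error 0.09, adjusted p = 0.000307), close to the shift of the median gene, and by 0.03 after centring, where it was not called.

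MCM8 and MCM9 resemble the ring subunits in sequence but act together in recombination repair. MCM9 had 0.401, 0.323 and 0.460 FPKM in fiber cells, against 1.83, 1.43 and 1.63 FPKM in epithelial cells, and was called lower in both scalings (log2 fold change −1.81, or −1.20 centred). It passed the filter through its epithelial level alone, and such genes had to differ. MCM8 had 1.15, 0.794 and 0.832 FPKM in fiber cells and 1.63, 1.64 and 1.65 FPKM in epithelial cells. Its fall of 0.78 was called with the values as deposited, and its centred value of −0.17 (95% interval −0.55 to 0.20) was not. Relative to MCM2 in the same library, as a ratio of FPKM + 0.1, MCM8 was at 1.56, 1.41 and 1.62 in fiber cells and at 0.242, 0.347 and 0.278 in epithelial cells.

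Polymerase α with primase lays down the short starter of each strand. POLA1, the catalytic subunit of the polymerase, had 1.08, 0.897 and 1.24 FPKM in fiber cells, against 5.93, 5.59 and 6.06 FPKM in epithelial cells. PRIM1, the catalytic subunit of primase, had 0.617, 0.578 and 0.683 FPKM in fiber cells and 3.84, 2.63 and 3.09 FPKM in epithelial cells. PRIM2, its large subunit, had 0.361, 0.268 and 0.266 FPKM in fiber cells and 1.53, 1.32 and 1.40 FPKM in epithelial cells. The 3 genes fell by similar amounts, with log2 fold changes of −2.36, −2.16 and −1.93 for POLA1, PRIM1 and PRIM2 (standard errors 0.14, 0.17 and 0.19), and were called lower in both scalings. PRIM2 passed the filter through its epithelial level alone, and such genes had to differ. The ratio of PRIM2 to PRIM1 overlapped between the cell types, and the difference of its log2 value was 0.23 (two-sided exact permutation p = 0.3).

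Polymerases δ and ε copy the lagging and the leading strand. POLE, the catalytic subunit of polymerase ε, had 0.455, 0.465 and 0.412 FPKM in fiber cells and 1.85, 1.98 and 1.87 FPKM in epithelial cells. It fell most in this group, and the log2 fold change was −1.88 (standard error 0.16, adjusted p = 2.16e-05) and −1.27 centred. POLE passed the filter through its epithelial level alone, and such genes had to differ. POLE2, an accessory subunit of polymerase ε, had 2.51, 3.31 and 3.17 FPKM in fiber cells, against 3.66, 3.60 and 3.65 FPKM in epithelial cells. With a log2 fold change of −0.28 (95% interval −0.58 to 0.02, adjusted p = 0.0797) POLE2 was not called, and after centring its value turned to 0.33. The table gave DNAAF2 the same values in every library, so the POLE2 signal cannot be told apart from that gene.

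POLE3 and POLE4 are histone-fold subunits of polymerase ε, and POLE3 also serves in a chromatin remodeler. POLE3 was the most abundant of the group, with 6.80, 3.46 and 6.60 FPKM in fiber cells and 19.3, 16.4 and 16.4 FPKM in epithelial cells, a log2 fold change of −1.67 (standard error 0.24). Its values were identical to those of its neighbour ALAD, an enzyme of heme synthesis, and are therefore those of the locus. POLE4 had 1.59, 1.86 and 1.26 FPKM in fiber cells, against 4.50, 2.72 and 3.31 FPKM in epithelial cells. It was called lower with −1.10 and missed the threshold after centring with −0.49 (adjusted p = 0.0774). POLD3, an accessory subunit of polymerase δ, had 2.93, 3.06 and 3.37 FPKM in fiber cells and 9.04, 6.80 and 8.30 FPKM in epithelial cells, and was called lower in both scalings (log2 fold change −1.33, or −0.72 centred).

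PCNA, the sliding clamp that tethers the polymerases, had 9.08, 9.08 and 10.9 FPKM in fiber cells, against 26.9, 24.5 and 26.0 FPKM in epithelial cells. Its fiber mean was 37.5% of its epithelial mean, and the log2 fold change was −1.41 (standard error 0.10, adjusted p = 9.90e-06) and −0.80 centred. The share kept by MCM2 was 9.43%. As a ratio of FPKM + 0.1 within a library, PCNA to MCM2 was 11.5, 14.5 and 19.0 in fiber cells. In epithelial cells this ratio was 3.77, 4.91 and 4.13, without overlap.

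The clamp loader is built of RFC1 and the small subunits RFC2 to RFC5, and its genes went in different directions. RFC2 was the one replication gene called higher with the values as deposited. It had 12.6, 14.7 and 11.7 FPKM in fiber cells, against 6.92, 7.70 and 6.61 FPKM in epithelial cells, and every fiber library was above every epithelial one. The log2 fold change was 0.86 (standard error 0.11, adjusted p = 0.000191), or 1.47 centred, and RFC2 was called higher under each alternative tried. An RNA without a symbol of its own, listed by RefSeq as noncoding, overlaps RFC2, and its part in the values was not tested. RFC5 was level, with 6.31, 6.47 and 6.13 FPKM in fiber cells and 6.31, 6.33 and 6.20 FPKM in epithelial cells. Its log2 fold change was 0.0048 (95% interval −0.19 to 0.20), which after centring was 0.61 and called higher.

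RFC4 had 7.74, 9.18 and 8.40 FPKM in fiber cells, against 11.1, 9.64 and 10.01 FPKM in epithelial cells. With a log2 fold change of −0.28 it was under the size limit, and with 0.33 after centring its sign turned. RFC1, the large subunit, fell to 1.37, 1.31 and 1.82 FPKM in fiber cells, against 4.61, 4.55 and 4.28 FPKM in epithelial cells, and the log2 fold change was −1.53 (standard error 0.15, adjusted p = 4.03e-05). RFC3 had 0.995, 0.368 and 0.697 FPKM in fiber cells and 1.77, 2.01 and 1.88 FPKM in epithelial cells, and its log2 fold change was −1.42 (standard error 0.29). RFC1 and RFC3 were called lower in both scalings, so the subunits of one complex stood on opposite sides of the median gene. After quantile normalization RFC3 was not called. As a ratio of FPKM + 0.1, RFC1 to RFC4 was 0.188, 0.152 and 0.225 in fiber cells and 0.421, 0.477 and 0.433 in epithelial cells.

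**Figure D3:**
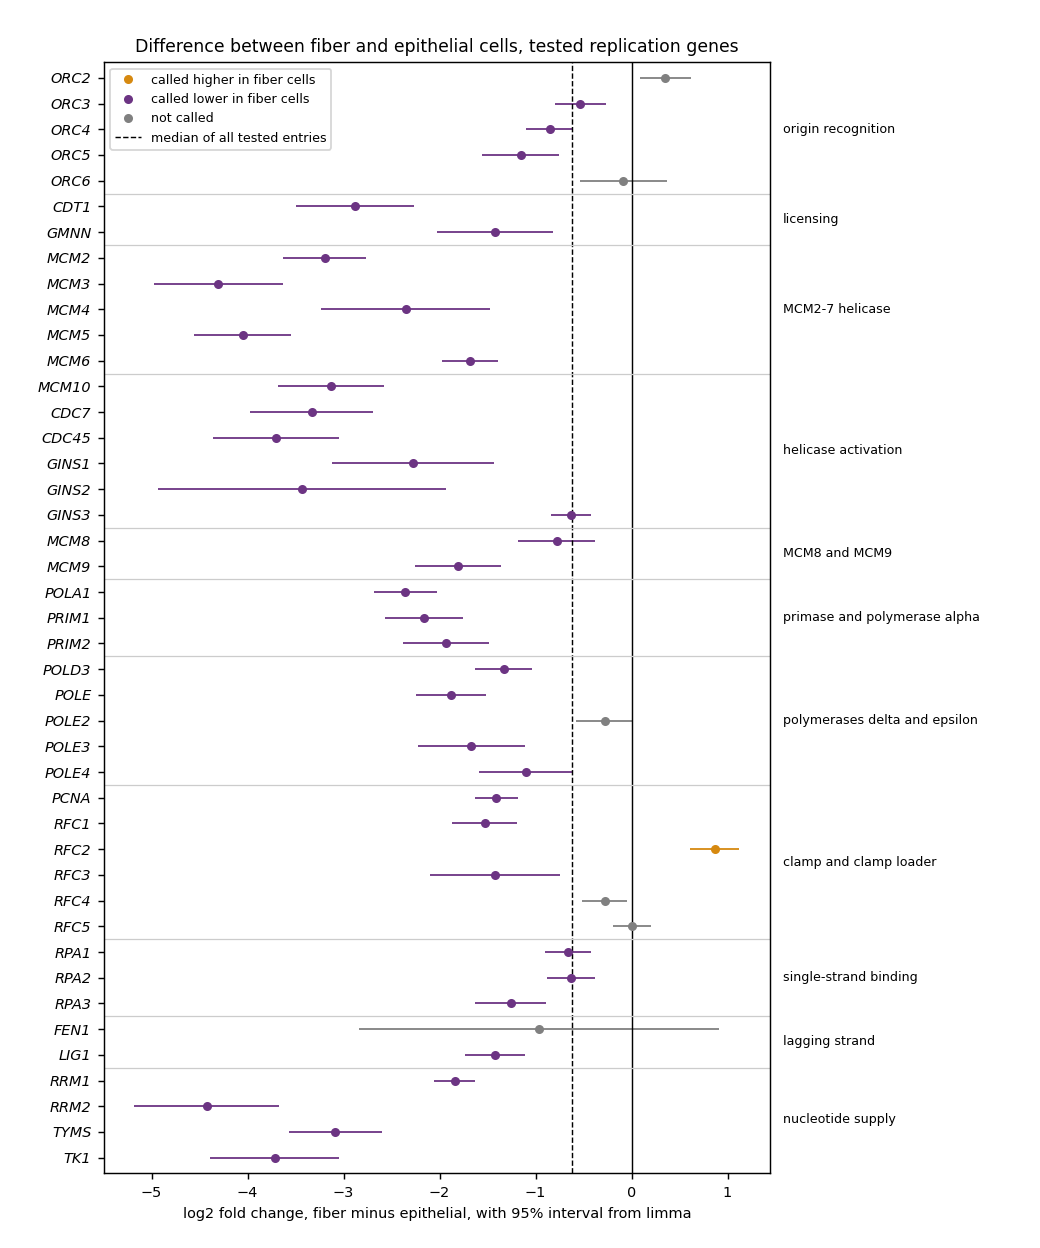
Log2 fold change, fiber minus epithelial (horizontal axis), of the 43 tested replication genes with its 95% interval from limma, grouped by role. The dashed line is the median of all tested entries, −0.62. The helicase, activation and nucleotide genes reach furthest left, RFC2 at 0.86 lies furthest right, and the single-strand binding genes RPA1 and RPA2 lie near the dashed line. In those leftmost groups MCM3, MCM5, MCM10, CDC7, CDC45, GINS1, GINS2, RRM2, TYMS and TK1 passed the filter through their epithelial level alone. Such genes had to differ. The other genes of these groups, MCM2, MCM4, MCM6, GINS3 and RRM1, lie at −3.20, −2.36, −1.68, −0.63 and −1.84.

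RPA, the trimer that covers single-stranded DNA, also serves in DNA repair. RPA1 had 4.46, 4.21 and 4.41 FPKM in fiber cells, against 7.27, 7.38 and 6.23 FPKM in epithelial cells. RPA2 had 5.77, 6.70 and 6.63 FPKM in fiber cells and 10.9, 9.04 and 9.84 FPKM in epithelial cells. Both were called lower with log2 fold changes of −0.66 and −0.63, and neither was called after centring, with −0.05 (95% interval −0.28 to 0.18) for RPA1 and −0.03 (95% interval −0.27 to 0.22) for RPA2. The ratio of RPA1 to RPA2 overlapped between the cell types, with a difference of −0.02 in its log2 value. RPA3, the smallest subunit, had 2.47, 1.69 and 1.94 FPKM in fiber cells and 5.55, 4.50 and 4.88 FPKM in epithelial cells, and was called lower in both scalings (log2 fold change −1.26, or −0.65 centred).

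FEN1 and LIG1 trim and join the fragments of the lagging strand. FEN1 had 0.576, 0.809 and 0.758 FPKM in fiber cells, against 0.235, 3.21 and 3.42 FPKM in epithelial cells. Epithelial replicate 1 lay below every fiber library while the other epithelial libraries lay far above, and the log2 fold change of −0.96 (95% interval −2.84 to 0.92, adjusted p = 0.305) was not called. Without that library FEN1 had a log2 fold change of −2.08 and was called lower (adjusted p = 0.000126). LIG1 had 1.28, 1.13 and 1.37 FPKM in fiber cells and 3.93, 3.43 and 3.31 FPKM in epithelial cells, with a log2 fold change of −1.43. The same values were given to 10 other entries, RANBP2 among them, so the LIG1 values cannot be assigned to LIG1 itself.

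The genes of nucleotide supply were all 4 called lower in fiber cells in both scalings. Of all tested entries 57.7% were called lower, or 29.3% after centring. RRM2, TYMS and TK1 passed the filter through their epithelial level alone, and such genes had to differ. RRM2, the subunit of ribonucleotide reductase whose amount follows the cell cycle in mammals, had the largest fall of the 43 tested genes on the fitted scale, where MCM3 came next with an overlapping interval. It had 0.191, 0.154 and 0.0234 FPKM in fiber cells and 5.23, 3.90 and 4.14 FPKM in epithelial cells, which left 2.77% of the epithelial mean (log2 fold change −4.43, standard error 0.33, adjusted p = 1.27e-05). RRM1, the large subunit of the same enzyme, had 3.26, 3.17 and 2.99 FPKM in fiber cells, against 12.3, 11.2 and 11.1 FPKM in epithelial cells, and the log2 fold change was −1.84 (standard error 0.09). As a ratio of FPKM + 0.1, RRM1 to RRM2 was 11.6, 12.9 and 25.1 in fiber cells and 2.32, 2.83 and 2.64 in epithelial cells. RRM2 in fiber replicate 3, at 0.0234 FPKM, lay under the added 0.1 FPKM.

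TK1, the thymidine kinase of dividing cells, had 0.463, 0.301 and 0.156 FPKM in fiber cells, against 5.12, 4.13 and 5.89 FPKM in epithelial cells. TYMS, which makes thymidylate, had 0.306, 0.371 and 0.423 FPKM in fiber cells and 4.47, 2.91 and 4.34 FPKM in epithelial cells. Their log2 fold changes were −3.72 for TK1 and −3.09 for TYMS, and for both genes the groups were far apart. The ratio of TK1 to TYMS overlapped between the cell types. In the RefSeq table TYMS overlaps YES1, as RFC1 overlaps WDR19, ORC4 MBD5, GINS1 NINL, CDC7 HFM1 and MCM9 ASF1A, and how reads of such pairs were divided is not stated. TYMS shared its values with an Ensembl entry without a symbol.

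Of the 16 ratios of FPKM + 0.1 between replication genes that could be computed within libraries, 10 did not overlap between fiber and epithelial cells, 7 of them higher and 3 lower in fiber cells. Each of these had a two-sided exact permutation p = 0.1, the smallest possible, and an adjusted p of 0.16 over the 16, so none could pass a threshold of 0.05. Whether a ratio was higher or lower depends on which gene was written first. Several of these ratios share MCM2 or ORC1, so they are not separate results. The ratios that overlapped were MCM10 to MCM2, PRIM2 to PRIM1, POLE3 to POLE, FEN1 to LIG1, RPA1 to RPA2 and TK1 to TYMS. The ratio of MCM10 to MCM2 was 0.183, 0.270 and 0.271 in fiber cells and 0.222, 0.281 and 0.189 in epithelial cells, while both genes were called lower. Among the ratios without overlap, CDT1 to GMNN was 0.165, 0.283 and 0.144 in fiber cells and 0.421, 0.438 and 0.753 in epithelial cells. ORC1 to ORC2 was 0.0224, 0.0365 and 0.0382 in fiber cells and 0.237, 0.282 and 0.187 in epithelial cells. ORC1 and CDC6 lay under the added 0.1 FPKM in every fiber library. The fiber ratios of CDC6 to ORC1, ORC1 to ORC2 and ORC4 to ORC1 therefore depend largely on it, and CDT1 was near it or below. How often ratios between other genes fail to overlap was not computed.

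Other genes of the pathway were read from lists chosen by their role, and their counts stand beside 57.7% of all tested entries called lower and 13.1% called higher, or 29.3% and 30.2% after centring. Among the licensing and firing factors, 6 of 8 tested genes were called lower and 1 higher in fiber cells. Their median difference was −1.20 on the log2 scale. After centring 5 were called lower and 1 higher, with a median of −0.59, and after quantile normalization 3 were called lower. WDHD1 and DONSON passed the filter through their epithelial level alone, and such genes had to differ. WDHD1, which couples the helicase to polymerase α, had 0.0231, 0.0249 and 0.0324 FPKM in fiber cells and 1.53, 1.11 and 1.42 FPKM in epithelial cells (log2 fold change −3.51). TIMELESS, a fork protection factor, was the one called higher, with 60.5, 51.8 and 68.5 FPKM in fiber cells and 27.0, 29.6 and 33.0 FPKM in epithelial cells (log2 fold change 1.01). Its neighbour in the RefSeq gene table is MIP, the major membrane water channel of fiber cells, whose mean was 792 FPKM in fiber and 107 FPKM in epithelial cells. A part of MIP in the values of TIMELESS was not tested. An Ensembl entry without a symbol had the same values as TIMELESS in every library, so the signal cannot be assigned to one of them.

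All 15 tested genes of the list for the lagging strand, chromatin assembly and topology were called lower, and 12 were after centring. DNA2, UHRF1, DSCC1, CHTF8 and ATAD5 passed the filter through their epithelial level alone, and such genes had to differ. TOP2A, the topoisomerase of dividing cells, fell most, to 0.571, 0.476 and 0.484 FPKM in fiber cells, against 8.22, 7.06 and 7.56 FPKM in epithelial cells (log2 fold change −3.66). DNMT1, the maintenance DNA methyltransferase that follows the fork, had the highest mean of the list over all libraries, with 11.5, 11.2 and 11.3 FPKM in fiber cells and 21.3, 17.5 and 19.98 FPKM in epithelial cells. TOP2A shared its values with an Ensembl entry without a symbol and DNMT1 with EIF3G, a translation initiation factor. The log2 fold change of DNMT1 was −0.78, and −0.17 centred, where it was not called. RNASEH2A had the smallest fall of the list (−0.73, or −0.13 centred).

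Of the 8 tested genes of the further list for nucleotide supply, 7 were called lower in both scalings. DCK and NME1 passed the filter through their epithelial level alone, and such genes had to differ. NME1, a nucleoside diphosphate kinase, had a log2 fold change of −2.89. RRM2B, the ribonucleotide reductase subunit used outside S phase in mammals, was not called, with 7.26, 5.62 and 6.41 FPKM in fiber cells and 7.94, 7.80 and 8.002 FPKM in epithelial cells (log2 fold change −0.30, and 0.30 centred). In fiber cells the mean of RRM2B was thus 6.43 FPKM while that of RRM2 was 0.123 FPKM, and in epithelial cells the means were 7.91 FPKM for RRM2B and 4.42 FPKM for RRM2.

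In the list of E2F, cyclin and pocket protein genes, which hold the switch into S phase, 16 of 20 tested genes were called lower and 1 higher, or 11 lower and 1 higher after centring and 9 lower after quantile normalization. E2F1, E2F3, E2F8, CCNE2 and CDK1 passed the filter through their epithelial level alone, and such genes had to differ. CDK1 fell most (log2 fold change −3.42). CCND1, cyclin D1, had the highest mean over all 6 libraries, though not over the fiber libraries, with 8.32, 6.65 and 8.60 FPKM in fiber cells and 33.3, 26.0 and 28.2 FPKM in epithelial cells (log2 fold change −1.88). CDK6 was the gene called higher, with 22.1, 19.4 and 26.9 FPKM in fiber cells and 12.2, 15.5 and 12.4 FPKM in epithelial cells (log2 fold change 0.77). Of the 7 genes in the list for the degradation of licensing factors and its regulators, 5 were called lower, or 3 after centring and after quantile normalization. These counts were not far from the shares of all tested entries. FBXO5 and DTL passed the filter through their epithelial level alone, and such genes had to differ. DTL, which targets CDT1, was listed at 0.115, 0.0001 and 0.0461 FPKM in fiber cells and at 2.15, 1.67 and 1.53 FPKM in epithelial cells, while DDB1, an adaptor of the same ligase, was not called (log2 fold change −0.21, and 0.40 centred).

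**Figure D4:**
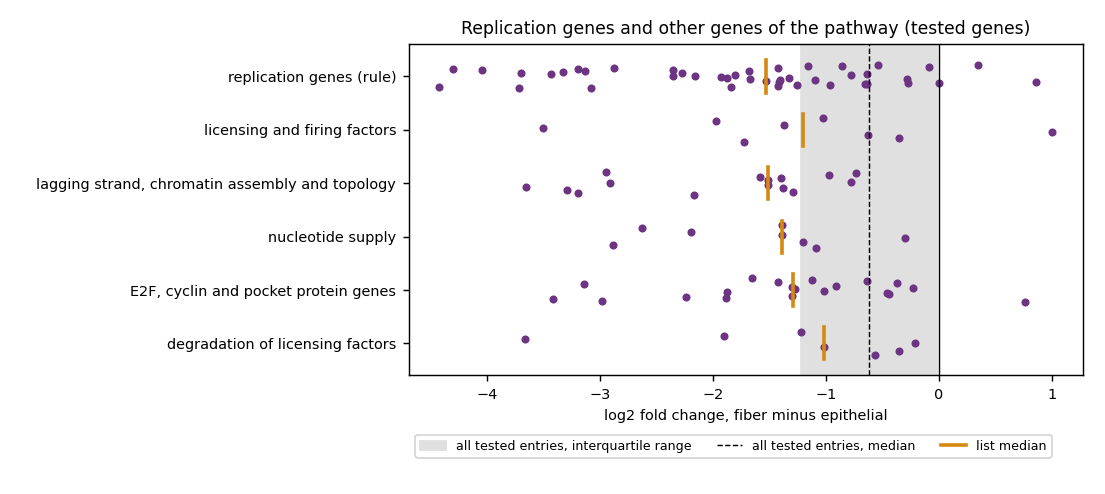
Log2 fold change, fiber minus epithelial (horizontal axis), of the tested replication genes and of the tested genes of 5 further lists, 1 point per gene, with list medians in orange. The grey band is the interquartile range of all tested entries and the dashed line their median of −0.62. The list medians, −1.53 for the replication genes and −1.02 to −1.52 for the others, lie left of the dashed line, with RFC2, TIMELESS and CDK6 among the points right of 0. Every list holds genes that passed the filter through their epithelial level alone, and such genes had to differ.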

How the data were processed

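Lens epithelial and fiber cells of E13 chick embryos were sequenced as total RNA, 3 libraries each. The authors trimmed reads with Cutadapt, mapped them to galGal6 with Bowtie2 and HISAT2, and assembled and quantified transcripts with StringTie and edgeR. Tool versions are not given in the sources used here. The deposited values are FPKM with 0.0001 in place of 0. The deposited table also holds the authors' mean FPKM, the ratio of these means (fold change), its log2 and their p-values and q-values, none of which was used. The floor was met in 3378 to 3543 entries of fiber and 2875 to 2958 of epithelial libraries.

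Entries averaging 0.5 FPKM or more were analysed as log2(FPKM + 0.1) with limma 3.58.1 (mean-variance trend) in R 4.3.3, by cell type only, with Benjamini-Hochberg adjustment over the 10818 tested entries. For low genes the pseudocount shrinks the fold change. The script was tested on simulated data. Ratios between genes were taken of FPKM + 0.1. Single values and ratios were compared by two-sided exact permutation tests.

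The members and gene lists were chosen with earlier results of these data known. Every member is described, and from each list the genes with the largest change in either direction and the highest mean are named. MCM7, POLA2, POLD1, POLD2, POLD4 and GINS4 were not analysed here. Neighbouring genes came from a RefSeq table of the GRCg7b assembly, which differs from galGal6, and all 45 symbols matched. Alternatives were other pseudocounts, filters, scalings, moderation, a replicate block, collapsed identical entries and leaving out each library.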

Additional observations from a re-analysis of the deposited data

How the results depend on the processing

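With the values as deposited, 36 replication genes were called lower and 1 higher in fiber cells. Of the 36, 25 genes, from CDT1 and MCM2 to MCM6 through TK1, were called lower under every alternative that tests all of them. The filter of 1 FPKM and the alternatives added later do not, and were left out of this count. The 25 include, apart from GINS1, the 14 genes that passed the filter through their epithelial level alone and had to differ. The same share over all tested entries was not computed. The count of genes called higher was 4 after median centring, quantile normalization and centring with the replicate block, and 2 after division by the 75th percentile and without the δ-crystallin entries. The count called lower was 29 after centring, 32 by the 75th percentile and 26 after quantile normalization. ORC5, GMNN, GINS1 and RFC3, called lower as deposited and after centring, were not called after quantile normalization. The median log2 fold change of the replication genes, −1.53, was −1.01 with a pseudocount of 1, −0.92 after centring with or without the block, −1.20 by the 75th percentile and −0.81 after quantile normalization. Over all tested entries, 1415 were called higher and 6240 lower, against 3263 and 3167 after centring, 3287 and 3186 after centring with the block, 2884 and 3228 after quantile normalization and 2223 higher by the 75th percentile. With at least 0.5 FPKM in each cell type, an alternative added after the data were seen, 22 replication genes were called lower, and 15 lower and 4 higher after centring. Leaving out the 5 genes that share values with another entry, also added then, gave 32 lower, and 25 lower and 4 higher after centring. With each library left out in turn, 36 to 37 replication genes were called lower and 1 to 2 higher, with a median of −1.70 to −1.37, and over all entries 1363 to 1433 were called higher and 5979 to 6198 lower.

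TIMELESS was not counted when identical entries were collapsed, because the copy kept there was the entry without a symbol, so 0 of its list were then called higher. Signs that turned were those of ORC3 (0.0734 after centring with or without the block, 0.12 after quantile normalization), ORC6 (0.52 after centring with or without the block, 0.23 by the 75th percentile, 0.86 after quantile normalization, 0.12 without δ-crystallin, and −0.251 to 0.0898 with each library left out, the highest without epithelial replicate 1), MCM8 (0.18 after quantile normalization), POLE2 (0.33 after centring with or without the block, 0.0487 by the 75th percentile, 0.37 after quantile normalization), RFC4 (0.33 after centring with or without the block, 0.0597 by the 75th percentile) and RFC5 (−0.0142 to 0.0248 with each library left out, below 0 without fiber replicate 2 or epithelial replicate 3). The log2 ratio of ORC4 to ORC1, 1.68 higher in fiber cells, was −0.0643 with a pseudocount of 1, which is above the ORC1 values. The cause of the other turns was not tested.

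Fiber and epithelial libraries with the same replicate number deviated together weakly (correlations 0.0659 to 0.0858, each the highest of its library). Those with different numbers had correlations of −0.0495 to −0.0235. Deviations were taken from the mean of each cell type and so cancel over its libraries. The correlations for equal and for different numbers therefore depend on each other and are not separate observations. The study divided the lenses of a replicate into both cell types, but the labels do not state whether equal numbers share lenses. The main fit did not take the numbers as pairs, and whether they are pairs was not settled. The replicate block changed no call of a replication gene with the values as deposited and left 36 lower. Unknown depth limits the low fiber values, several of which lie under the pseudocount.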
